A study of Mus musculus with 6 samples.

Results

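The mitotic genes of G2/M are 34 of the 22180 genes measured in intestinal blood endothelium of the mouse. They were chosen by symbol, from a list of 35 genes of mitosis: each probe set that the platform annotation assigned to exactly 1 listed symbol was taken, and each of the 34 genes had 1 such probe set. Ccnb1, the listed gene left over, was not analysed here. Expression was measured on 6 Affymetrix Mouse Gene 2.0 ST arrays, 1 biological replicate each. The 3 knockout arrays came from adult Apcfl//fl; Villin-CreERT2 mice, and the 3 control arrays from adult mice labelled both WT and Apcfl//fl, for which no Cre is named. By these labels both groups carried the floxed Apc alleles. Both were on a mixed C57BL/6 x 129 background and received tamoxifen under the skin on each of 5 days, with the intestine collected on day 6. The villin promoter is active in intestinal epithelium, so the deletion was directed to epithelial cells and not to the sorted endothelium. Cells were sorted for CD31 and against CD45, EpCAM and gp38. The labels do not say whether mice were pooled, so p-values measure the spread between these samples.

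Before a cell divides, it copies its DNA and then switches on a set of genes for mitosis. Cyclin A and cyclin B activate the kinase CDK1 to start mitosis, the Aurora and Polo kinases build the spindle, kinetochores attach chromosomes to it, and kinesin motors move them. The anaphase-promoting complex then degrades cyclins so that the cell can leave mitosis. That complex is unrelated to the Apc gene deleted here. In resting cells the DREAM complex holds many of these genes low through a promoter element called CHR, and in dividing cells MYBL2 and FOXM1 act on the same element. Most endothelial cells of an adult vessel are at rest.

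The promoters of the mitotic genes share sequence features that played no part in choosing them. The CHR element was searched for as TTTGAA or TTCGAA, and the CCAAT box, which binds the factor NF-Y, as CCAAT. Both strands were read, and the 2 motifs did not overlap in any window of these genes. Windows of 300 bases (250 before the gene start and 50 after it, RefSeq, GRCm38.p6) were given for 30 of the 34 genes, in 31 windows, since Prc1 had 2. Kif20a, Tpx2, Ccna2 and Aurkb were not matched. A CHR match lay in 27 of the 31 windows (87.1%), against 19.2% of all 32851 windows. A CCAAT match lay in 24 of them (77.4%), against 37.4% of all. Both stood in 23 (74.2%), against 7.52% of all.

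The 4 genes with the smallest p in the comparison below are shown from 120 bases before the gene start to 20 after it, 5′ to 3′ on the coding strand. Capitals mark CHR and CCAAT matches, in either orientation. Kif11 lies at chr19:37376262-37376401 on the plus strand, Kif23 at chr9:61946780-61946919 on the minus strand, Top2a at chr11:99024170-99024309 on the minus strand and Hmmr at chr11:40733418-40733557 on the minus strand.
Kif11: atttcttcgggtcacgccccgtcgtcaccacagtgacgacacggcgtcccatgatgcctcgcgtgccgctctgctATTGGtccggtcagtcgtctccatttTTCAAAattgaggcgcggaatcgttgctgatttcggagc
Kif23: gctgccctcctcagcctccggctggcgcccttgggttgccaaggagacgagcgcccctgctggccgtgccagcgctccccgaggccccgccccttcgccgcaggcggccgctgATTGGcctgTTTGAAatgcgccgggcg
Top2a: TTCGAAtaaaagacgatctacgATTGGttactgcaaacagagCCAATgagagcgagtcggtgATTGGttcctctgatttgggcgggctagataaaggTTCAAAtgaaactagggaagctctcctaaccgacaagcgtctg
Hmmr: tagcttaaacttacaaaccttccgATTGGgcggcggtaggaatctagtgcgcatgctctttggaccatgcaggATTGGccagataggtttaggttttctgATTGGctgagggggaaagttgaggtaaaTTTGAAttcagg

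In these 4 stretches a CHR match began close to the gene start, at position -19 in Kif11, 3 in Kif23, -23 in Top2a and 9 in Hmmr, counting the start as 1. The nearest CCAAT match began upstream of it, at -45 in Kif11, -7 in Kif23, -58 in Top2a and -20 in Hmmr. Over all mitotic genes with a window, 25 of 31 windows (80.6%) had a CHR match that began at -40 or later, against 4.74% of all windows. Among 67 windows of other mitotic genes the CHR share was 62.7%, and among 43 windows of DNA replication genes it was 14%. The CCAAT share was 71.6% in the other mitotic genes and 60.5% in the replication genes. No CHR match was found in the windows of Nuf2, Cenpe, Birc5 and Nusap1, which says only that these letters are not in those windows.

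**Figure D1:**
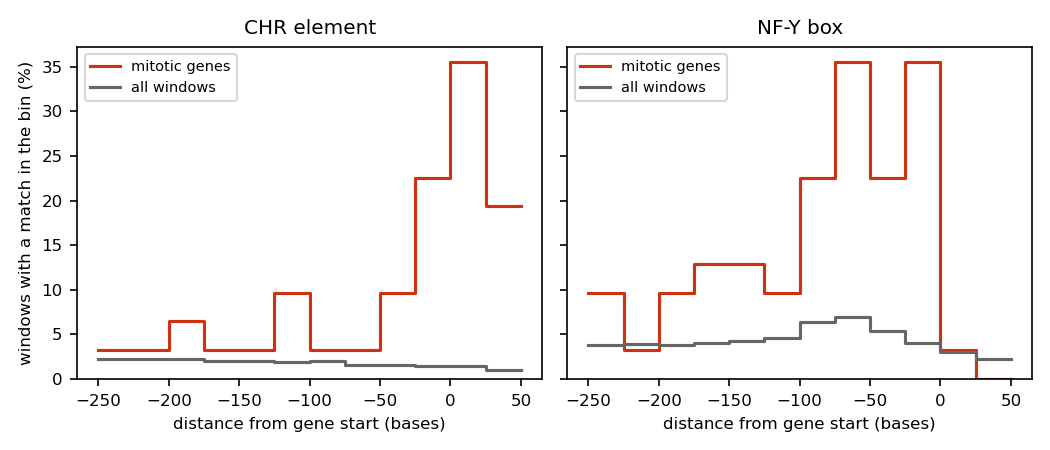
Share of promoter windows (%) with a match to the CHR element (left) or the NF-Y box, CCAAT (right), in bins of 25 bases by distance from the gene start, for 31 windows of mitotic genes (red) and all 32851 windows (grey). CHR matches of the mitotic genes gather around the start, reaching 35.5% in the 25 bases from it.

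No mitotic gene passed the test between knockout and control. Of 34 genes, 0 were called at an adjusted p of 0.05 (limma with Benjamini-Hochberg adjustment over all genes), where 1.47% of all 22180 genes were called (0.631% higher and 0.839% lower). Among genes with a mean above background, tested alone, 2.61% were called and again 0 of the mitotic genes. At an unadjusted p under 0.05 there were 3 (8.82%), a lower share than the 13.9% of all genes (6.37% higher and 7.5% lower). They were Kif11, Kif23 and Top2a, all higher in the knockout. Among all genes 326 were called, 140 higher and 186 lower. With each array centred on its median the split was 251 higher and 126 lower.

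The changes leaned upward without passing. The log2 change was positive in 30 of 34 mitotic genes, against 48.6% of all genes, and the median was 0.16, against -0.0065 over all genes. After median centring the median change of the mitotic genes was 0.25. That step raises the change of every gene by the same amount, so the median over all genes rises with it. For the 23 mitotic genes with a mean above background the median was 0.21, and 0.26 after a second quantile normalization. The 23 include Kif11, which was above background in the knockout arrays only. The median standard error of a single mitotic gene was 0.17. In 4 genes (11.8%) the 3 knockout arrays all lay above the 3 controls, against 9.09% of all genes, and they were Kif11, Kif23, Bub1b and Racgap1. In 0 the order was the reverse, against 10.2% of all genes. Intervals were wide: the 95% confidence interval of the change included 0 in 31 of the 34 genes and its upper end passed 0.5 in 22, so in those 22 an increase of 0.5 lay within the interval. In a bulk sample, a different number of dividing cells and a different amount of RNA per cell cannot be told apart.

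**Figure D2:**
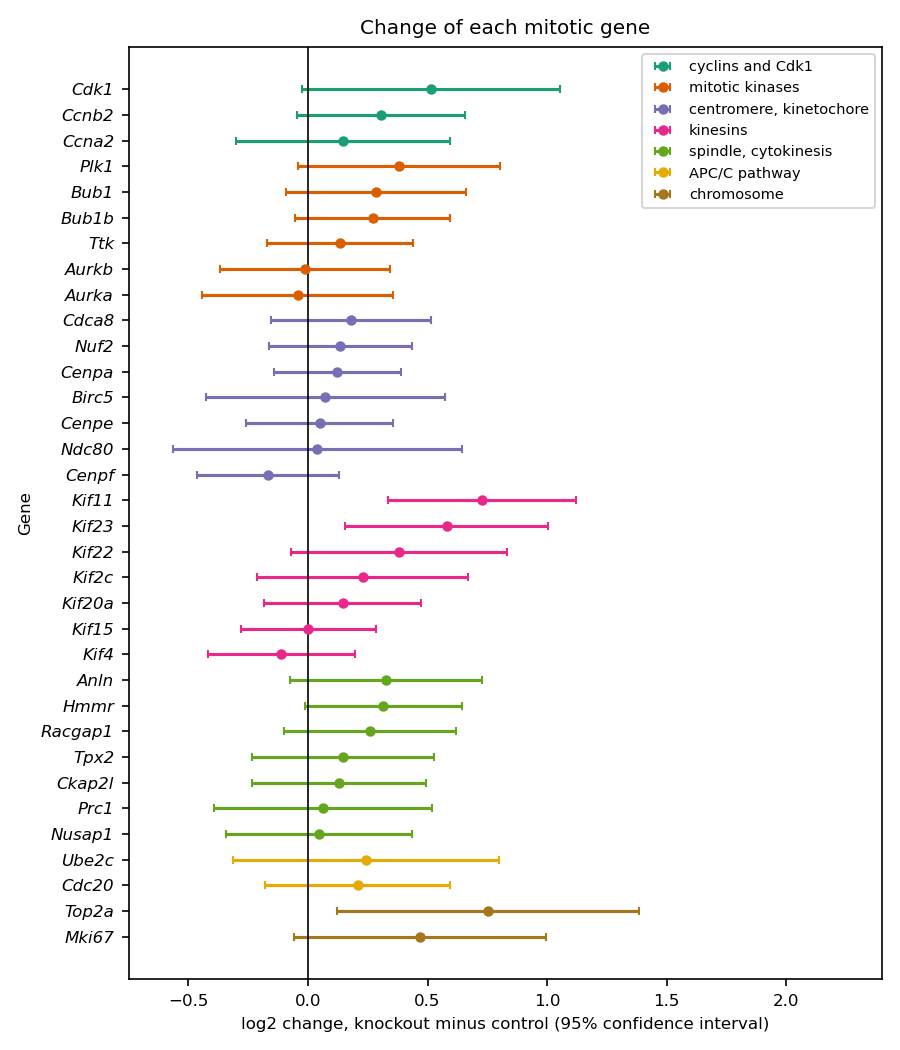
Log2 change (knockout minus control, horizontal axis) of each of the 34 mitotic genes (vertical axis), with the 95% confidence interval of the fit, coloured by role. Only the intervals of Kif11, Kif23 and Top2a lie wholly above 0, and none of the 34 genes passed after adjustment over all genes.

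Many of these genes were close to the detection limit. A log2 level of 4.12, below which 90% of 1432 chemosensory receptor genes lay, served as background. The mean over the 6 arrays lay above it for 23 of the 34. Both group means were above it in 22 genes and below it in 11, namely Hmmr, Bub1b, Anln, Bub1, Cenpf, Nuf2, Ttk, Kif4, Ckap2l, Birc5 and Kif15. Kif11 alone was above it in the knockout and below it in the controls. For the 11, no fold is given in the text below, since neither group mean was above background. Single arrays of Anln, Bub1b, Nuf2, Ckap2l and Birc5 were above it. Their changes enter the plots and the counts over 34 genes. Otherwise they are printed only where the processing turned a sign. Levels of different probe sets cannot be set against each other, so each gene is compared with itself across arrays.

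Arrays of the knockout group did not behave alike. Averaged over the 34 genes, knockouts 1 and 2 lay 0.25 and 0.32 above the control mean on the log2 scale, and knockout 3 lay 0.072 above it. Control 2 was level with knockout 3, also at 0.072, while controls 1 and 3 were at -0.0095 and -0.063. The group difference of these means was 0.21, with a within-group SD of 0.10. Knockout 2 held the highest value of the 6 arrays in 16 genes, knockout 1 in 9 and knockout 3 in 3, while control 3 was the lowest in 10. Knockout 2 exceeded all 3 controls in 22 of the 34 genes (64.7%, against 30.1% of all genes) and knockout 1 in 18 (52.9%, against 27.7%). Knockout 3 did so in 9 (26.5%, against 27.3%). Without knockout 3 the median change was 0.27, and 0 genes were called.

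**Figure D3:**
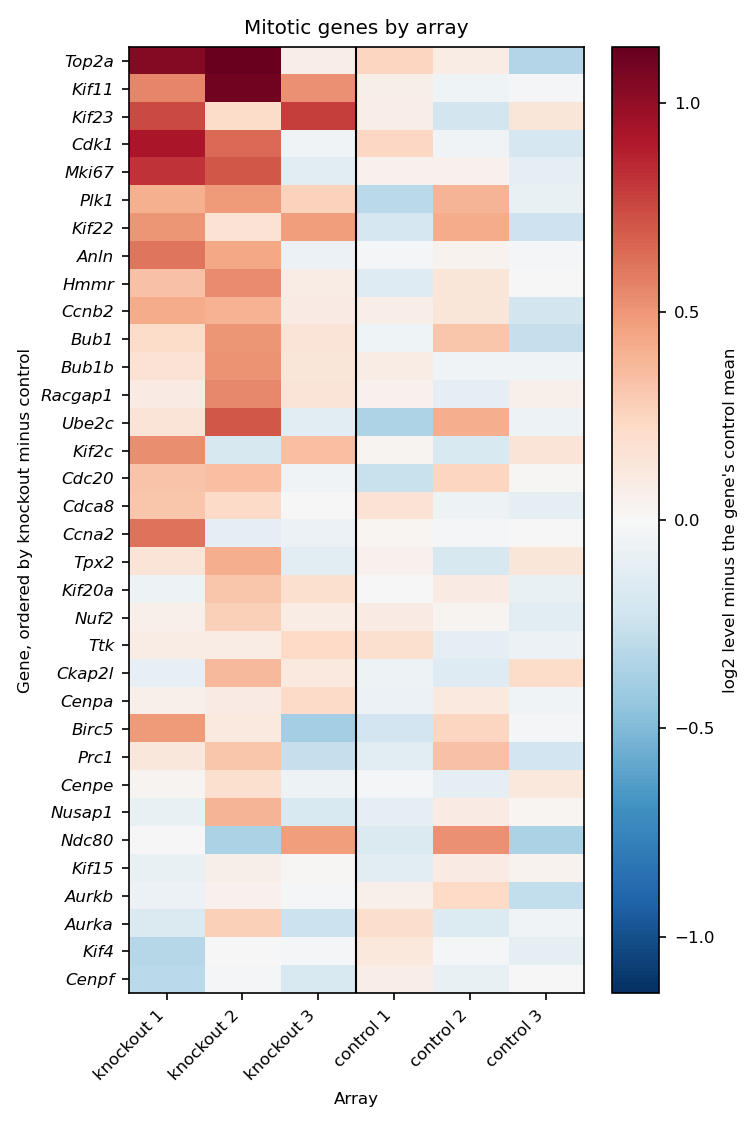
Heat map of the 34 mitotic genes (rows, ordered by change) on the 6 arrays (columns); colour is the log2 level minus the gene's own control mean. Red cells for knockouts 1 and 2 fill most of the upper rows, while knockout 3 is pale in Top2a, Cdk1 and Mki67.

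A pattern defined after the values were seen was counted the same way in all genes. In 10 of the 34 mitotic genes (29.4%) knockouts 1 and 2 both exceeded every control while knockout 3 did not, against 4.86% of all genes. They were Mki67, Top2a, Cdk1, Ccnb2, Plk1, Tpx2, Cdc20, Hmmr, Anln and Cdca8. Of these, Hmmr and Anln had both group means below background, though Anln was above it on knockouts 1 and 2 (4.37 and 4.20). Some margins were narrow. On knockout 1, Tpx2 was only just above control 3 (4.31 against 4.30) and Plk1 only just above control 2 (5.64 against 5.63). Cdca8 on knockout 2 was at 4.94, against 4.89 on control 1. With knockout 1 or knockout 2 as the array set apart, the counts were 1 (2.94%, against 4.86% of all genes) and 2 (5.88%, against 5.96%). Among 66 other mitotic genes the same pattern as in the 10 was found in 4 (6.06%), and among 47 DNA replication genes in 7 (14.9%). The SD among knockouts was larger than that among controls in 23 of the 34 genes (67.6%, against 55% of all genes).

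Proliferation markers showed the pattern most plainly. Mki67 encodes Ki-67, a coat protein of mitotic chromosomes and the standard marker of cycling cells. Its log2 level was 6.25, 6.13 and 5.30 on knockouts 1 to 3 and 5.48, 5.47 and 5.32 on controls 1 to 3. Knockouts 1 and 2 lay above all controls and knockout 3 below them, so the groups overlapped. The change was 0.47 ± 0.23 (standard error, n = 3 a group; limma, adjusted p = 0.427). Top2a encodes topoisomerase II alpha, which untangles DNA as chromosomes condense. It was at 5.74, 5.83 and 4.77 in the knockouts and 4.94, 4.78 and 4.37 in the controls. Here knockout 3 lay inside the control range, and the change of 0.75 ± 0.28 did not pass (limma, adjusted p = 0.266).

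Cdk1, the kinase that starts mitosis, was at 6.44, 6.16 and 5.48 in the knockouts and 5.75, 5.47 and 5.32 in the controls. Knockout 3 was again the lowest knockout and lay inside the control range, and the change was 0.51 ± 0.24 (limma, adjusted p = 0.392). Without knockout 3 the changes were 0.76 for Mki67, 1.09 for Top2a and 0.79 for Cdk1, and none of the 3 passed (limma, adjusted p = 0.0894, 0.0762 and 0.147). Without knockout 1 they were 0.29, 0.61 and 0.31 (limma, adjusted p = 0.704, 0.495 and 0.672). Ccnb2, a B-type cyclin that activates CDK1, was at 6.21, 6.19 and 5.88 against 5.86, 5.92 and 5.57. Its 2 higher knockout arrays cleared the controls by a narrow margin, with a change of 0.31 ± 0.15 (limma, adjusted p = 0.436). Ccna2, the A-type cyclin, differed on knockout 1 alone. That array read 5.80, and the other 5 lay between 5.08 and 5.21.

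**Figure D4:**
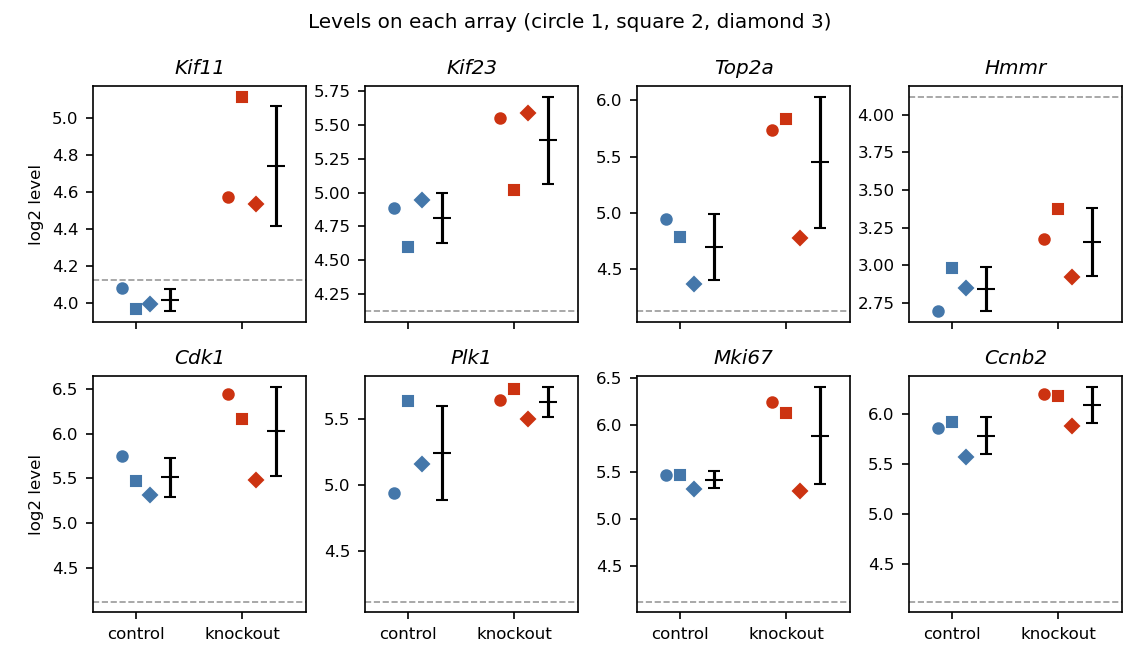
Log2 level (vertical axis) of the 8 mitotic genes with the smallest p on each array, controls in blue and knockouts in red; bars give the group mean ± SD (n = 3) and the dashed line the background level of 4.12. In Kif11 and Kif23 the groups are apart, and the diamond of knockout 3 sits among the controls in Top2a and Cdk1 and just below them in Mki67.

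Kinesins included the 2 genes with the smallest p. Kif11 encodes the Eg5 motor, which pushes the spindle poles apart. Its log2 level was 4.57, 5.11 and 4.54 in the knockouts and 4.08, 3.97 and 3.99 in the controls. All knockout arrays lay above all controls, and all 3 controls were below background. The fitted change was 0.73 ± 0.17 and did not pass (limma, adjusted p = 0.0886). Against the background level the difference came to at least 1.54-fold. After median centring Kif11 passed (0.81, limma, adjusted p = 0.0492), and likewise after a second quantile normalization over genes above background (0.83, limma, adjusted p = 0.0343). Kif11 belonged to that set only because its knockout arrays raised its mean above background, so the second value is not separate support. The adjusted p ranged from 0.0343 to 0.563 over the alternatives, the highest being that against control 1 alone.

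Kif23 encodes a kinesin of the central spindle, where it works with the product of Racgap1 to direct cytokinesis. It was at 5.56, 5.02 and 5.59 in the knockouts and 4.88, 4.60 and 4.95 in the controls. The groups did not overlap, though knockout 2 lay only just above control 3, and the change was 0.58 ± 0.19 (limma, adjusted p = 0.203). Here knockout 3 was the highest array, unlike in Mki67. Kif22, a chromosome arm motor, was at 5.44, 5.10 and 5.41 against 4.74, 5.36 and 4.70. Control 2 stood within the knockout range, and the change was 0.38 ± 0.20 (limma, adjusted p = 0.456). Kif2c, which depolymerises microtubules at centromeres, changed by 0.23 ± 0.20 and Kif20a, a motor of late mitosis, by 0.15 ± 0.15. Kif15, a spindle motor, and Kif4, a chromosome motor, were below background in both groups.

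The mitotic kinases split. Plk1, the Polo kinase of spindle assembly, was at 5.64, 5.73 and 5.50 in the knockouts and 4.94, 5.63 and 5.16 in the controls. Its knockout arrays were close together and the controls spread, with control 2 inside the knockout range (0.38 ± 0.19, limma, adjusted p = 0.42). Aurka, the kinase of spindle poles, was at 5.03, 5.47 and 4.95 against 5.39, 5.03 and 5.15, and Aurkb, the kinase of the chromosomal passenger complex, at 5.48, 5.60 and 5.53 against 5.61, 5.77 and 5.27. The groups overlapped fully in both. Their changes of -0.043 and -0.014 turned to 0.043 and 0.072 after median centring, so they have no settled direction. The spindle checkpoint kinase genes Bub1, Bub1b and Ttk were below background in both groups. Bub1b, though dim, had every knockout array (3.92, 4.27 and 3.89) above every control (3.84, 3.72 and 3.71).

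Of 7 centromere and kinetochore genes, 0 were called, and 3 were below background in both groups. Cenpa, the histone variant that marks centromeres, was at 6.99, 7.03 and 7.16 in the knockouts and 6.87, 7.05 and 6.90 in the controls. The groups overlapped, and the interval of the change ran from -0.14 to 0.39. Cenpe, a kinetochore motor, changed by 0.049 ± 0.14 and Cdca8, which encodes borealin of the passenger complex, by 0.18 ± 0.15. Ndc80, a microtubule anchor of the kinetochore, varied from array to array in both groups. It read 4.33, 3.96 and 4.80 in the knockouts and 4.17, 4.85 and 3.96 in the controls. Its partner Nuf2, the passenger gene Birc5 (survivin) and Cenpf, a kinetochore protein of G2, were below background in both groups.

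Of 7 spindle and cytokinesis genes, 0 were called, and Hmmr, Anln and Ckap2l were below background in both groups. Racgap1, which acts in cytokinesis, was at 5.04, 5.50 and 5.10 in the knockouts and 5.00, 4.84 and 5.01 in the controls. Knockout 2 stood out, and knockouts 1 and 3 cleared the highest control by less than 0.1 (0.26 ± 0.16, limma, adjusted p = 0.539). Anln, for the scaffold anillin of the contractile ring, was at 4.37 and 4.20 on knockouts 1 and 2 and between 3.69 and 3.80 on the other 4 arrays. Hmmr, a spindle protein, was below background throughout, with levels from 2.69 to 3.38. Tpx2, an activator of Aurora A, changed by 0.15 ± 0.17, Nusap1, a microtubule bundler, by 0.045 ± 0.17, and Prc1, a bundler of the central spindle, by 0.061 ± 0.20.

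The anaphase-promoting complex was represented by its activator Cdc20 and its ubiquitin-conjugating enzyme Ube2c. Cdc20 was at 6.54, 6.56 and 6.17 in the knockouts and 5.96, 6.46 and 6.23 in the controls. Ube2c was at 6.61, 7.17 and 6.33 against 6.11, 6.87 and 6.41. In both, control 2 was the highest control and knockout 3 lay inside the control range. The changes were 0.21 ± 0.17 and 0.24 ± 0.25, and neither passed (limma, adjusted p = 0.663 and 0.736). Single arrays weighed heavily: Ube2c was at 0.010 without knockout 2 and 0.067 without control 1, and at most 0.45 (without control 2), while Cdc20 ranged from 0.080 without control 1 to 0.33 without knockout 3.

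Other genes of the cell cycle were read from the same fit. Of 66 other mitotic genes 0 were called, 12 (18.2%, against 13.9% of all genes) had an unadjusted p under 0.05 (9 higher and 3 lower) and the median change was 0.12. In this list the 4 smallest p were those of Tubb5, a tubulin (0.31 ± 0.070, limma, adjusted p = 0.0797), Cks2, a CDK-binding subunit (1.29 ± 0.32, limma, adjusted p = 0.101), the mitotic kinase gene Pbk (0.49 ± 0.13) and Sgo2a, which protects centromeric cohesion (0.48 ± 0.14). All 4, taken for their small p, had knockout arrays above all controls. So did 16 of the 66 genes (24.2%, against 9.09% of all genes). Cks2 was at 7.05, 6.13 and 7.15 in the knockouts and 6.11, 5.32 and 5.04 in the controls, with the lowest knockout just above the highest control. Cks2 had 4 probe sets and Tubb5 had 2, and the values given are those of the brightest alone. As list means, the other mitotic genes exceeded their control mean by 0.10 to 0.15 in the knockouts and lay between -0.024 and 0.027 in the controls. Unlike in the 34 genes, knockout 3 was apart from the controls here, at 0.10.

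Of 47 DNA replication genes 1 was called (2.13%, against 1.47% of all genes). Prim2, a primase subunit, passed narrowly, at 6.48, 6.35 and 6.42 in the knockouts and 5.74, 5.91 and 5.71 in the controls (0.63 ± 0.13, limma, adjusted p = 0.0497). That call was lost with any 1 of the 6 arrays left out. Dtl, an adaptor of the ubiquitin ligase that degrades licensing factors, which was below background on all 6 arrays, Tyms, for thymidylate synthase (0.36 ± 0.13), and Chaf1a, a histone chaperone (0.48 ± 0.18), did not pass. The median change was 0.10, and the list means of the knockouts lay 0.12 to 0.16 above the control mean.

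Regulators of the cycle had 0 calls among 41 genes and a median change of 0.018. At an unadjusted p under 0.05 by limma there were 11 (26.8%, against 13.9% of all genes), 6 higher and 5 lower. The 4 smallest p went both ways. The CDK inhibitor genes Cdkn1b (-0.42 ± 0.088, limma, adjusted p = 0.0599) and Cdkn2c (-0.59 ± 0.14, limma, adjusted p = 0.0897) were lower, and Tfdp1, the partner of E2F factors (0.55 ± 0.12, limma, adjusted p = 0.0673), and the cyclin D1 gene Ccnd1 (0.51 ± 0.12, limma, adjusted p = 0.0733) were higher. In each of the 4, taken for their small p, the groups did not overlap. Over the 41 genes, knockouts lay above all controls in 6 (14.6%, against 9.09% of all genes). They lay below all controls in 5 (12.2%, against 10.2% of all genes). Foxm1, an activator of mitotic genes, was picked after its values were seen. It was at 5.00, 4.79 and 4.25 in the knockouts and 4.21, 4.14 and 3.97 in the controls (0.57 ± 0.20, limma, adjusted p = 0.231). The lowest control lay under the background level of 4.12, and the other controls and the lowest knockout lay only just above it. The size of the Foxm1 change thus rests on levels near background. Mybl2, the other activator, also picked after its values were seen, had a change of -0.016 ± 0.13.

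**Figure D5:**
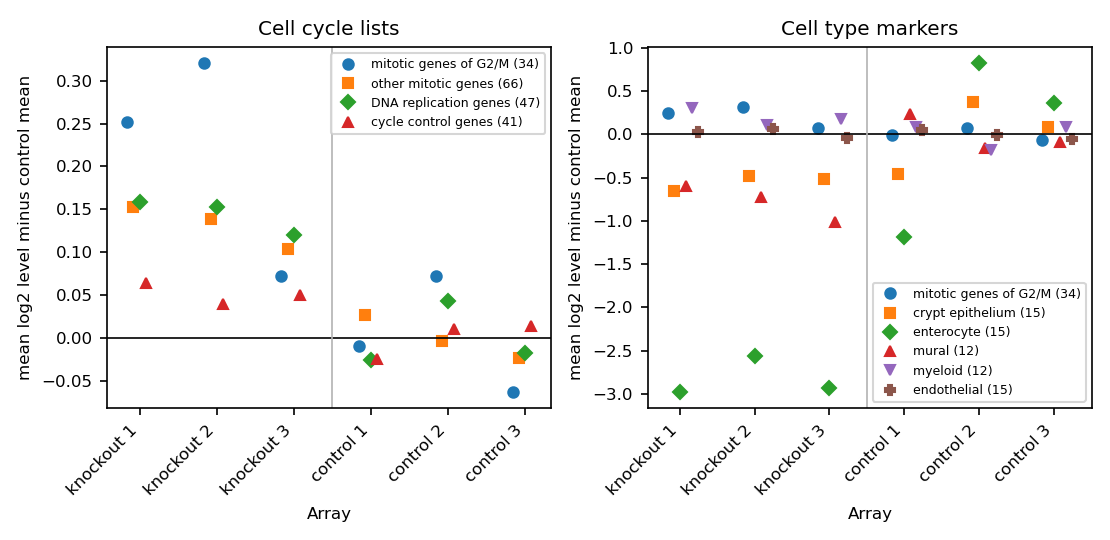
Mean log2 level of each gene list minus its control mean (vertical axis) on the 6 arrays (horizontal axis), for cell cycle lists (left) and cell type markers (right), with the number of genes in brackets. The 34 mitotic genes lie at 0.25, 0.32 and 0.072 in knockouts 1 to 3. The list means of enterocyte, crypt and mural markers are lower in the knockouts.

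Pecam1, which encodes CD31, had a mean of 11.4 in each group. Of 15 endothelial markers 2 were called (13.3%, against 1.47% of all genes), 1 higher and 1 lower. At an unadjusted p under 0.05 by limma there were 7 (46.7%, against 13.9% of all genes), 6 higher and 1 lower. Markers of other cells that divide or that the sort could hold were summed over whole lists. The crypt list holds genes of the dividing crypt and general epithelial genes such as Epcam, so its mean does not follow dividing cells alone. Its deviations were -0.65 to -0.48 in the knockouts and -0.46, 0.38 and 0.084 in controls 1 to 3. The list mean ran from 4.70 to 4.87 in the knockouts and from 4.89 to 5.73 in the controls. Of its 15 markers 11 were lower and 4 higher. Epcam was below background on all 3 knockouts and on control 1, and at 7.20 and 6.24 on controls 2 and 3. Against control 1 alone, the median change of the mitotic genes was 0.19. Enterocyte markers were lower in 15 of 15 genes, 10 of them called (66.7%, against 1.47% of all genes), with list means of 5.19 to 5.61 against 6.99 to 8.99. Mural markers were lower in 12 of 12, 4 called (33.3%), at 7.63 to 8.05 against 8.49 to 8.88. T and NK cell markers were lower in 10 of 11, 1 called (9.09%), at 4.56 to 4.82 against 5.13 to 5.90.

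Goblet and Paneth cell markers were lower in 10 of 10 genes, with 0 called (list means 4.94 to 5.21 against 5.22 to 7.16). Fibroblast markers were lower in 9 of 10, with 0 called (5.50 to 5.88 against 5.95 to 6.36). Platelet and erythroid markers were lower in 3 of 4, with 0 called (5.58 to 5.95 against 5.58 to 6.03). In the myeloid, lymphatic endothelial and B and plasma cell lists more markers were higher than lower in the knockout. Myeloid markers were higher in 10 of 12 genes, with 0 called (0 also at an unadjusted p of 0.05) and list means of 5.80 to 5.99 in the knockouts and 5.51 to 5.78 in the controls. Lymphatic endothelial markers were higher in 5 of 7 genes (5.51 to 5.93 against 5.19 to 5.76). Of the 7, 1 was called (14.3%, against 1.47% of all genes), the receptor gene Flt4 (0.65 ± 0.094, limma, adjusted p = 0.0159). B and plasma cell markers were higher in 5 of 7, with 0 called (6.74 to 7.36 against 6.68 to 6.94). At an unadjusted p under 0.05 by limma there was 1 of the 7 (14.3%), near the 13.9% of all genes. Knockout 3, the lowest knockout for mitotic genes, was the highest for the B and plasma cell list, at 0.57 above the control mean, and for the lymphatic list, at 0.50. Ptprc, which encodes CD45, was near background, with means of 4.14 and 4.46. The part of the cell types of these lists in the mitotic values was not tested.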

How the data were processed

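Values were used on the deposited log2 scale, 1 per probe set and array. The submitters' processing notes name RMA and oligo, with no versions or settings (not given in the sources used here). RMA subtracts background, equalises the distributions of arrays and combines probes, which compresses changes of dim genes. The annotation gave 1 symbol to 23521 of 41345 probe sets, several to 1814 and none to 16010. Only the first kind was kept, and the brightest probe set on average stood for a gene, leaving 22180 genes. The test was limma 3.58.1 (R 4.3.3), two-sided, with lmFit, eBayes and trend, and Benjamini-Hochberg adjustment over the 22180 genes at 0.05. Low values were not filtered, so that dim genes were tested too. Changes are knockout minus control, ± is the standard error, and intervals are 95%. The procedure was tested on simulated data. Arrays have no read depth, and their number limits the precision. Same-numbered arrays did not deviate together (correlations of -0.020, -0.0078 and 0.039), so the numbers were not treated as pairs. Alternatives covered the filter, normalization, probe sets, variance model, array weights, replicate block, threshold and arrays left out. Named beside the 34 genes are, per pathway list, called genes and the 4 with the smallest p, sort genes and, from the cell type lists, Flt4. Foxm1 and Mybl2 fall outside this rule and were chosen after their values were seen. The members and lists were chosen with earlier results of these data known. Plots used matplotlib 3.10.9 in Python 3.11.15.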

Additional observations from a re-analysis of the deposited data

How the results depend on the processing

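Of 454 values for mitotic genes over 14 alternatives, 27 had another sign than reported, and 2 passed the threshold, both for Kif11 after renormalization. Birc5, Kif15 and Ttk were below background in both groups. The signs that turned were those of Aurka (0.043) and Aurkb (0.072) after median centring, of Aurka (0.037) and Aurkb (0.070) after a second quantile normalization, of Kif15 (-0.0081) with array weights and of Ttk (-0.050) against control 1 alone. With 1 array left out, ranges that crossed 0 were -0.087 to 0.27 for Ccna2, -0.20 to 0.057 for Aurka, -0.15 to 0.097 for Aurkb, -0.14 to 0.30 for Birc5, -0.016 to 0.11 for Cenpe, -0.13 to 0.15 for Nusap1, -0.068 to 0.23 for Prc1, -0.063 to 0.046 for Kif15 and -0.18 to 0.30 for Ndc80.

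The count of called mitotic genes was 0 and stayed 0 with each array left out, against 1 (Kif11) after median centring, after the second quantile normalization and at a threshold of 0.1. Other mitotic genes went from 0 to 1 in the same 3 settings and without control 1 (0 to 1 over arrays left out). Replication genes went from 1 to 2 after median centring and at the threshold of 0.1, and to 0 without the trend, with the replicate block, against control 1 alone and with any array left out (0 to 0). Control genes went from 0 to 1 with the filter, 2 after either renormalization and 4 at the threshold of 0.1. All calls numbered 326, against 114 without the trend, 672 at the threshold of 0.1, 41 against control 1 alone and 48 to 339 with 1 array left out: 153, 128 and 48 without knockouts 1, 2 and 3, and 151 and 88 without controls 2 and 3. With the replicate block there were 291, and it changed no call of a mitotic gene. The mean difference of the mitotic genes was 0.21 (0.16 to 0.29 with 1 array left out). For the 23 with a mean above background, Kif11 included, it was 0.26, and it became 0.33 after the second quantile normalization. The median change of the 34 genes, 0.16, ranged from 0.15 to 0.27 with 1 array left out. The causes were not tested. Signal near background in 11 of the 34 genes and 3 arrays a group limit what can be detected.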
